A study of Mus musculus with 20 samples.

Results

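Cathepsins are the proteases of the lysosome, the acidic compartment in which a cell breaks down proteins delivered by endocytosis and autophagy. They are made as inactive proenzymes in the endoplasmic reticulum, carried to the lysosome largely by mannose 6-phosphate receptors, and activated there by cleavage at low pH. Most are cysteine proteases, while cathepsin D is an aspartic protease and cathepsin A a serine carboxypeptidase. Neural cells depend on them for the turnover of long-lived proteins, and inherited loss of cathepsin D causes a neuronal storage disease. The 10 genes described here, Ctsa, Ctsb, Ctsc, Ctsd, Ctsf, Ctsh, Ctsl, Ctso, Ctss and Ctsz, were taken by gene symbol from the 37561 genes shared by all tables of the series.

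Transcripts were measured by RNA-seq in 2 lines of ESD3, a mouse embryonic stem cell line of strain 129s2/SvPas that was kept on a feeder layer of mouse embryo fibroblasts. The control line carried a short hairpin RNA against luciferase, and the HPRT knockdown line carried one against HPRT, the purine salvage enzyme whose loss causes Lesch-Nyhan disease. Both lines were grown into spherical neural masses and differentiated toward dopaminergic neurons, with collection each day from day 0 to day 4 and then every other day to day 14. Each line was made once, and each line and day had 1 library, in which the RNAs of that time point had been pooled, so no replicates of a day exist among the 20 libraries. Errors are therefore standard deviations over days, and the days of a line followed each other in 1 course rather than being independent cultures.

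The deposited values give the log2 ratio between 2 libraries and no level. The total reads of a library were not given, and the size factors of the 20 libraries, recovered from genes read in only 1 library of a table, ran from 0.823 to 1.60 times their median. Day 6 was left out of the tests, as the study left it out of its canonical pathway analysis, and its values are given separately. Hprt was lower in the knockdown on each of the 10 days, with a mean log2 ratio of -4.00 ± 0.89 (SD, n = 9 days). Of the 10 cathepsins, 9 passed the filter on low genes, set at 4 for the typical log2 normalized count, as did 13450 genes in all; Ctss did not.

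Cathepsin transcripts were mostly higher in the HPRT knockdown line. Of the 9 tested, 7 were higher by limma with Benjamini-Hochberg adjustment over all genes (threshold 0.05), namely Ctso, Ctsc, Ctsb, Ctsf, Ctsd, Ctsa and Ctsl, against 26.4% of all genes tested. Ctsh and Ctsz did not pass, and no cathepsin was lower at an unadjusted p under 0.05, where 26.5% of all genes were lower by the adjusted test. The median of the 9 mean log2 ratios was 0.60, or a fold of 1.52 at the median gene Ctsd, beside a median of 0.007 over all genes tested. The ratio stood above 0 on 9 of 9 days for 6 cathepsins, which was so for 14.2% of all genes. On day 0, the first day sampled, when the cells were already neural masses, the ratio was above 0 for 8 of the 9, with a median of 0.54, while 48.2% of all genes were above 0 on that day.

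**Figure D1:**
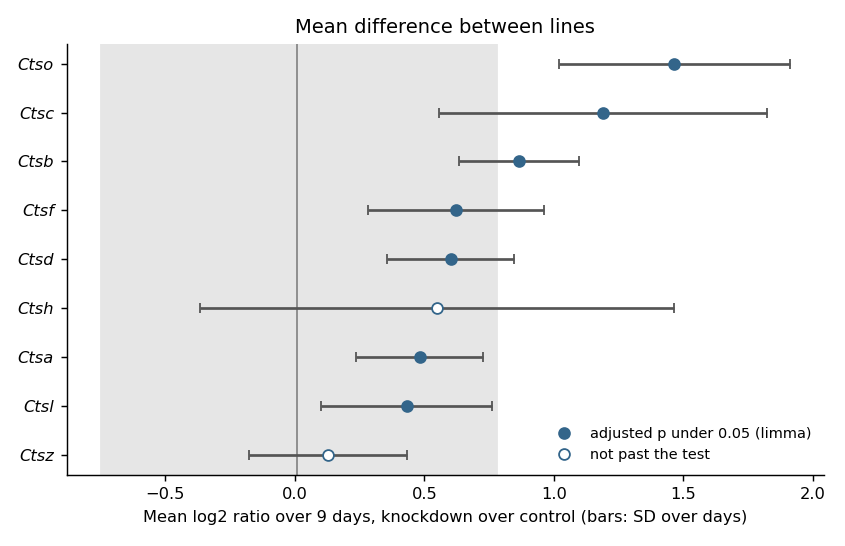
Mean log2 ratio of 9 cathepsins (horizontal axis) over the 9 days tested, HPRT knockdown over control. Bars are the SD over days, filled points passed the limma test, the grey band holds the 10th to 90th percentile of all genes tested (-0.75 to 0.78) and the grey line their median. Ctso, Ctsc and Ctsb lie beyond the band, and Ctsz lies nearest to 0.

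Ctsd encodes the main aspartic protease of lysosomes. It lies on the minus strand at chr7:149557053-149573943 (NCBIM37, the build of the files), with 10 exons when those of all transcripts are merged. Its log2 ratio was lowest on day 0 at 0.28, had a median of 0.59 and was highest on day 4 at 0.94. All 9 days were thus above 0, with a mean of 0.60 ± 0.25 (SD, n = 9 days; adjusted p = 0.000449). On day 6 the ratio was -0.89.

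Ctsa encodes the serine carboxypeptidase that also holds neuraminidase 1 and beta-galactosidase in a protective complex. It is on the plus strand at chr2:164658373-164666532 with 13 merged exons. Its ratio had a median of 0.46 and lay between 0.027, on day 10, and 0.84, on day 14. It averaged 0.48 ± 0.24 (SD, n = 9 days; adjusted p = 0.00141), and day 6 stood at -0.12.

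Ctsb and Ctsl encode the best known cysteine endopeptidases of the family. Ctsb (chr14:63741302-63764758, plus strand, 10 merged exons) had a ratio of 0.48 on its lowest day, day 2, a median of 0.88 and 1.13 on its highest, day 8. Its SD was the lowest of the 9, and the mean of 0.87 ± 0.23 (SD, n = 9 days; adjusted p = 6.41e-05) corresponds to a fold of 1.82. Ctsl (chr13:64464522-64471614, minus strand, 9 merged exons) was nearly equal in the lines on day 2, at 0.0081, and reached 0.97 on day 14. Its mean was 0.43 ± 0.33 (SD, n = 9 days; adjusted p = 0.00824). Over days 0 to 4 alone the mean was 0.24 (adjusted p = 0.117) and over days 8 to 14 it was 0.67. On day 6 both were lower in the knockdown, at -0.47 for Ctsb and -0.31 for Ctsl.

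Ctso and Ctsf encode 2 further cysteine cathepsins found in many tissues. Ctso (chr3:81736523-81760647, plus strand, 8 merged exons) had the highest mean of the 9, 1.47 ± 0.44 (SD, n = 9 days; adjusted p = 6.21e-05), a fold of 2.76. Its ratio climbed over the first days, from 0.97 through 1.29, 1.65 and 1.95 to 2.35 on day 4, and then lay between 1.06 and 1.38 from day 8 on. On day 6 it was 0.054. Ctsf (chr19:4855129-4860912, plus strand, 14 merged exons) had a ratio of -0.0049 on day 10, a median of 0.54 and 1.09 on day 12. It was thus above 0 on 8 of 9 days, with a mean of 0.62 ± 0.34 (SD, n = 9 days; adjusted p = 0.00134), and day 6 stood at 0.17.

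Ctsc encodes dipeptidyl peptidase I, which activates the serine proteases of immune cell granules. It is on the plus strand at chr7:95426595-95459398 with 9 merged exons. Its ratio was 0.25 on day 10, had a median of 1.23 and reached 2.15 on day 2, with a mean of 1.19 ± 0.63 (SD, n = 9 days; adjusted p = 0.000794). On day 6 the ratio was 0.17. All 9 days tested were above 0, but the size of the difference varied more than for the other called genes.

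Ctsh and Ctsz encode an aminopeptidase and a carboxypeptidase. Ctsh (chr9:89948990-89970927, plus strand, 14 merged exons) was above 0 on 8 of 9 days with a median of 0.87, and stood at -1.73 on day 10. It averaged 0.55 ± 0.91 (SD, n = 9 days; adjusted p = 0.118). Without day 10 the mean was 0.83 (adjusted p = 0.000822), which would bring the count to 8 cathepsins; over days 0 to 4 alone it was 1.00 (adjusted p = 0.00399) and over days 8 to 14 it was -0.018. Ctsz (chr2:174252994-174264540, minus strand, 6 merged exons) ran from -0.50 on day 0 to 0.43 on day 3. Its mean of 0.13 ± 0.30 (SD, n = 9 days; adjusted p = 0.319) was within the spread over days, and 6 of 9 days were above 0. On day 6 the ratio was -0.79 for Ctsh and 0.34 for Ctsz.

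**Figure D2:**
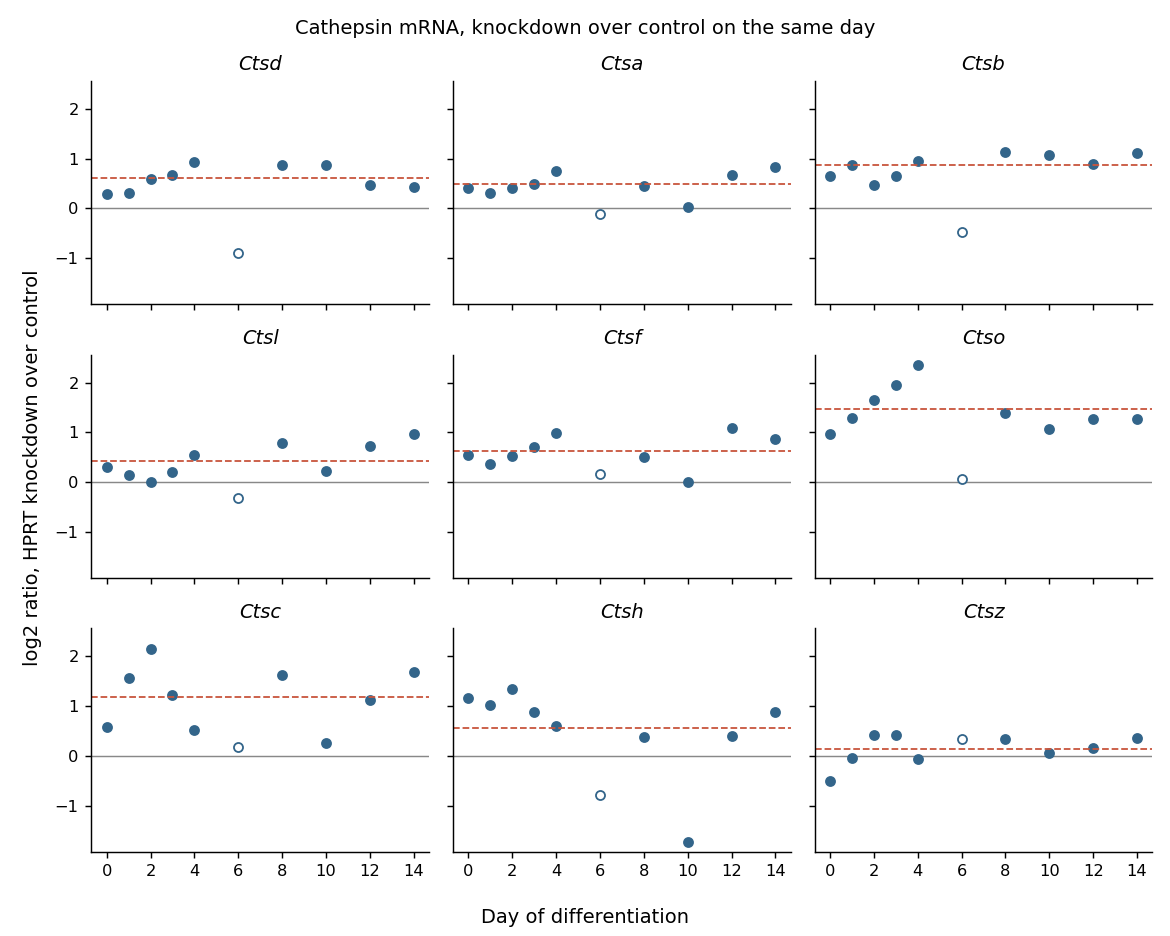
Log2 ratio of the HPRT knockdown over the control (vertical axis) against the day of differentiation for 9 cathepsins. Each point is 1 pair of libraries, open points are day 6, the dashed line is the mean without day 6 and the grey line marks no difference. Ctsd, Ctsb, Ctsa, Ctsl and Ctsh fall below 0 on day 6. On day 10 Ctsh is far below 0 and Ctsf just below, and Ctsz is below on days 0, 1 and 4. Ctso climbs from 0.97 on day 0 to 2.35 on day 4.

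Ctss encodes a cysteine cathepsin of antigen-presenting cells, which processes the invariant chain of class II molecules. It lies on the plus strand at chr3:95330708-95360325. It was listed at 0 in 24 of the 28 tables. The other 4 tables gave 2 reads in the control library of day 8 and 1 read in the control library of day 10, so no comparison between the lines was made.

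The counts behind the values could be recovered for 4 cathepsins. Reads were aligned over 49 bases and a read that lay partly in a gene counted by its overlap, so counts were read equivalents and need not be whole. Intervals on them are exact Poisson 95% intervals and cover counting error only. Levels below are read equivalents divided by the size factor relative to the median library and by the length of the merged exons in kilobases. The gene models behind the authors' counts may differ from these exons.

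Ctso had 62 to 280 read equivalents in the control libraries, with a median of 177, and 180 to 517 in the knockdown libraries, with a median of 373. Its level was 13.0 to 48.8 per kilobase in the control and 41.0 to 117 in the knockdown. The lowest knockdown level was that of day 6. On the other 9 days each knockdown library lay above each control library, as did the values joined over the tables. Such a separation of the joined values was found for 1 of the 9 cathepsins and for 3.49% of all genes tested. Between day 0 and day 4 the control fell from 174.5 to 59.4 size-factor-adjusted read equivalents, while the knockdown went from 338 through a high of 461, reached on day 2, to 304.

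Ctsc had a level of 18.9 to 47.5 per kilobase in the control and 38.8 to 142 in the knockdown, so the groups overlapped. Its highest knockdown libraries were those of days 1 and 2, with 838 reads (95% interval 783 to 897) and 585 reads (539 to 634), against 313 reads (279 to 350) and 131 reads (110 to 156) in the controls of those days. Ctsf had a level of 105 to 330 in the control and 188 to 657 in the knockdown and also overlapped. Ctsh was the lowest, at 7.77 to 30.7 in the control and 9.24 to 46.8 in the knockdown. On day 10 it had 127 reads (105 to 151) in the control and 31 reads (21.1 to 44.0) in the knockdown, intervals that do not meet, with a size factor of the knockdown library 0.811 times that of the control.

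In order of level, the control medians per kilobase were 178 for Ctsf, 35.4 for Ctso, 33.0 for Ctsc and 17.3 for Ctsh. The range of Ctsf did not meet those of the other 3. The neighbours Ctso and Ctsc did not differ beyond their spread, and the range of Ctsh overlapped both. Levels of Ctsa, Ctsb, Ctsd, Ctsl and Ctsz could not be recovered; their typical log2 normalized counts were 8 or more.

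**Figure D3:**
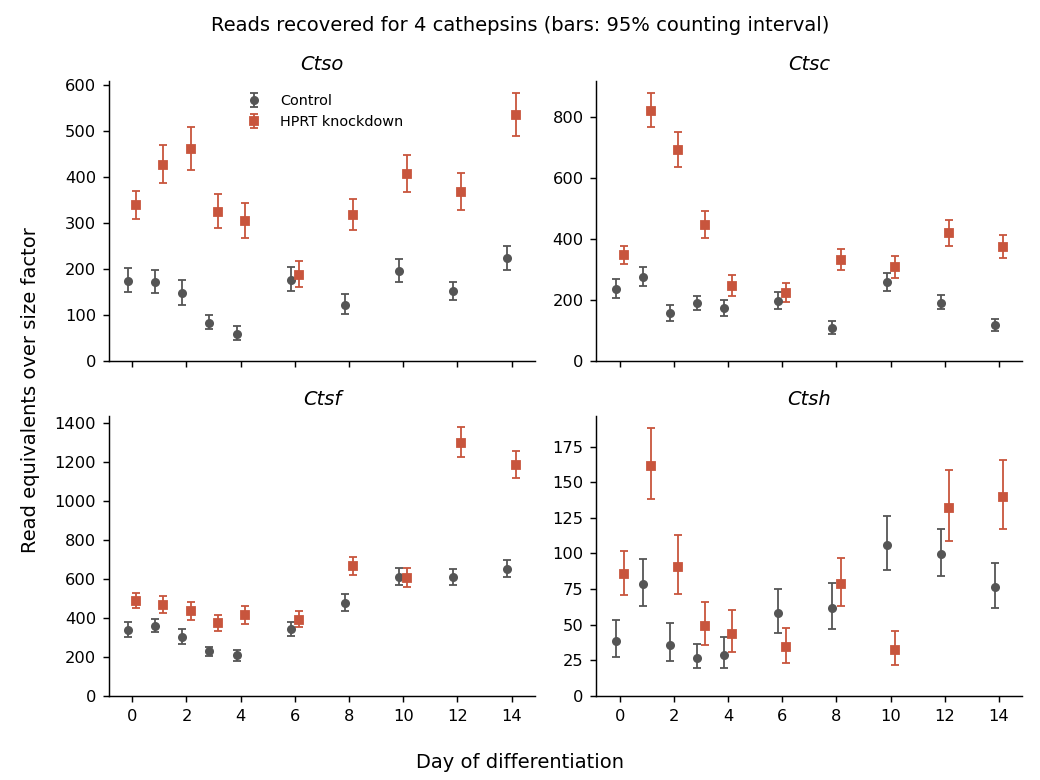
Read equivalents divided by the size factor (vertical axis) against the day of differentiation for Ctso, Ctsc, Ctsf and Ctsh, control in grey circles and HPRT knockdown in red squares. Bars are 95% Poisson intervals scaled by the same size factor. The lines are apart for Ctso on all days but day 6, and Ctsh on day 10 is low in the knockdown.

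Promoter sequence was examined because most members tested were higher in the knockdown. The 6-base motif CACGTG is the core of the element bound by TFEB and its relatives MITF and TFE3, the basic helix-loop-helix factors known to drive lysosomal genes, and it is also bound by other factors of that class. It reads the same on both strands. In RefSeq promoters of GRCm38.p6, another build than that of the files, each with 250 bases before and 50 after a gene's start, the motif was found for 4 of the 8 cathepsins that had an entry, Ctsa, Ctsd, Ctsf and Ctsl, and for 8.09% of all 27025 genes. Ctsb and Ctsh had no entry, and the promoters of Ctsc, Ctso, Ctss and Ctsz held no match. The lines below show the stretch around the match nearest before the start, with the motif in capitals, and for comparison the bases just before the start of Ctso, the gene with the highest ratio. Each reads 5′ to 3′ on the strand of the gene.
Ctsa (chr2:164833726-164833772, plus strand, match 12 bases before the start): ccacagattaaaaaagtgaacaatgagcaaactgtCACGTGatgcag
Ctsd (chr7:142387891-142387960, minus strand, match 98 bases before the start): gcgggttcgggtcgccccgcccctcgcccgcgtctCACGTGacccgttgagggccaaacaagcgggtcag
Ctsf (chr19:4855051-4855120, plus strand, match 79 bases before the start): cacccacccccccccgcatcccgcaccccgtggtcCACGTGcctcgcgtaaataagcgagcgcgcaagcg
Ctsl (chr13:64370722-64370770, minus strand, match 236 bases before the start): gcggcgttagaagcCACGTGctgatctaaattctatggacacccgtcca
Ctso (chr3:81932531-81932600, plus strand, no match): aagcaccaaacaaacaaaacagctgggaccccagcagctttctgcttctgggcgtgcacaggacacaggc
The Ctsa match is in 1 of its 2 listed promoters. A match is a run of letters and not a measured binding site, and members with and without it were both among the higher genes.

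Because reads of near-identical genes or of overlapping neighbours could blur the values, the exons were compared with the genome. Of all 49-base windows in the merged exons, 99.2% to 100% occurred once in NCBIM37 for each of the 10 cathepsins. The library kit did not mark strand. Exons of Fdft1 on the opposite strand overlapped those of Ctsb by up to 769 bases, those of Neurl2 and Pltp overlapped Ctsa by up to 324 and 311 bases, and those of Th1l overlapped Ctsz by up to 10 bases. A same-strand neighbour, 6330512M04Rik, overlapped Ctsd by up to 163 bases. Reads in these stretches cannot be told apart.

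The course within each line was followed by joining the tables of consecutive days, both lines relative to the control library of day 0. A table of days 3 and 4, taken to be that of the control, was at odds with the rest. Tables of neighbouring days form loops around which a gene's differences should add up to 0, and in its loop 0.0125% of genes did so within 1e-05, against 86.8% to 89.8% in the other 8 loops. It left 0.50 on the log2 scale for Ctsh, -0.12 for Ctso, -0.10 for Ctsf and 0.079 or less in size for the other 6. The joined values therefore need not match the same-day ratios. The loop alone cannot tell the control table of days 3 and 4 from the knockdown table of these days, since neither is in another loop. Read equivalents were recovered with the knockdown table kept and the control table left out.

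Ctsf rose in both lines. Its slope was 0.11 ± 0.02 log2 units per day (estimate ± SE, n = 9 days; adjusted p = 0.00793) in the control and 0.11 ± 0.02 (adjusted p = 0.0193) in the knockdown, and on day 14 it stood 1.05 and 1.25 above day 0 of the same line. Ctsl rose in the knockdown, by 0.08 ± 0.02 per day (adjusted p = 0.025), and ended 1.12 above its day 0, while the control slope of 0.032 gave an adjusted p of 0.135. Thus 1 of 9 cathepsins rose in the control line, where 19.6% of all genes did, and 2 of 9 in the knockdown, where 7.34% did. The calls in the knockdown rested on the last days. Without day 12 or without day 14 neither gene passed, and without day 2 Ctsl did not. On a scale of log2(day + 1) no slope passed in either line.

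The difference in trend between the lines was tested as the slope of the same-day ratio. By limma 0 of the 9 passed after adjustment, while 14.1% of all genes did, and 2 had an unadjusted p under 0.05. These were Ctsl, whose ratio grew by 0.049 ± 0.017 per day (SE, n = 9 days; adjusted p = 0.0814), and Ctsb, with 0.032 ± 0.014 (adjusted p = 0.148). The rise of Ctsl in the knockdown line is therefore not shown to differ from that of the control.

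**Figure D4:**
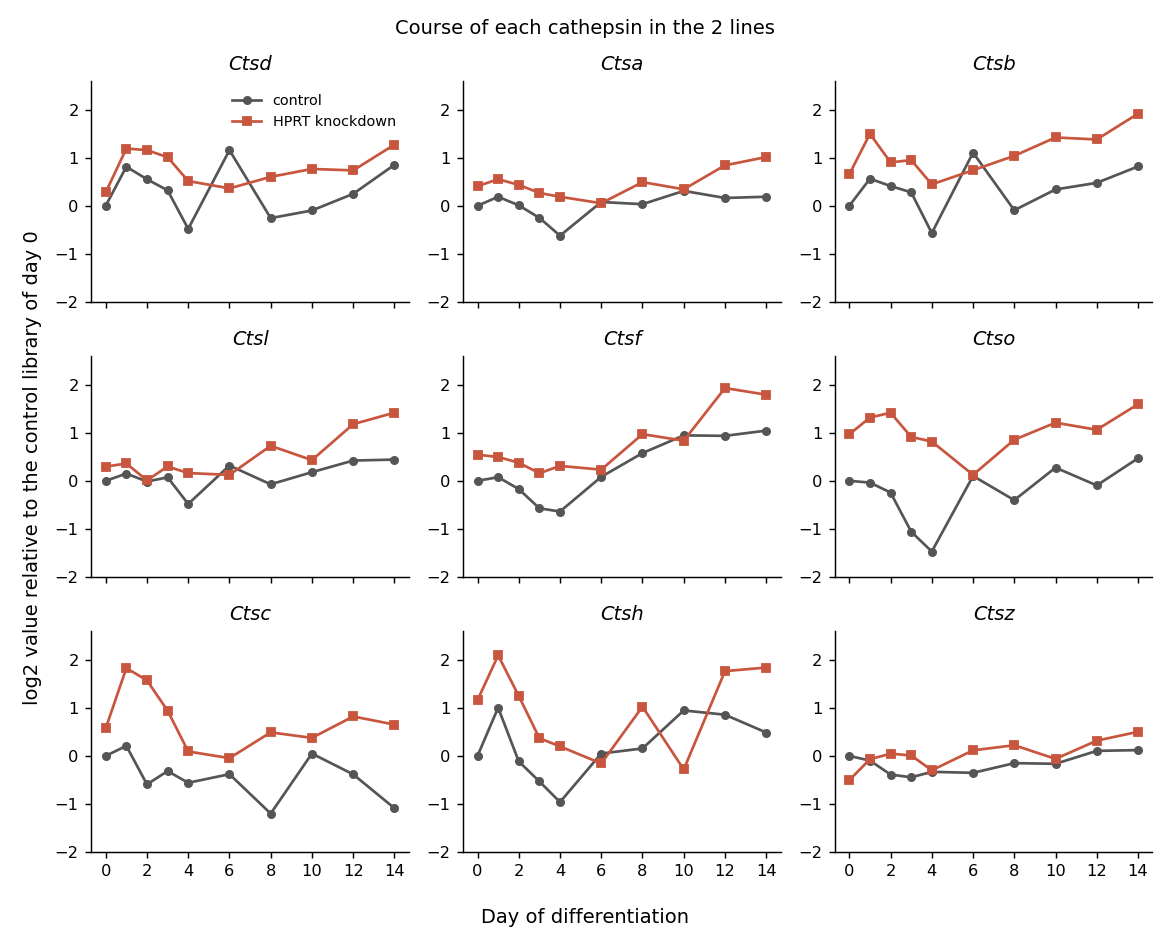
Log2 value of each cathepsin relative to the control library of day 0 (vertical axis) against the day of differentiation, joined over tables of consecutive days, control in grey circles and HPRT knockdown in red squares. Ctsf climbs in both lines. The control of Ctsb and Ctsd peaks on day 6, at 1.11 and 1.16, where the knockdown shows no peak.

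Most large steps of the control line touched day 6. A step of at least 2-fold between consecutive days, a description with no test since each library is single, was seen in 9 of the 81 control steps of the 9 cathepsins and in 5 of the 81 knockdown steps, beside 6.15% and 9.96% of the steps of all genes. Of the 18 control steps into or out of day 6, 6 were that large, beside 12.4% over all genes. From day 4 to day 6 the control rose by 1.68 for Ctsb, 1.64 for Ctsd, 1.58 for Ctso and 1.01 for Ctsh, that is at least 2-fold for 4 of 9 cathepsins and for 9.72% of all genes. From there to day 8 Ctsb fell by 1.20 and Ctsd fell by 1.42.

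Measured against the middle of days 4 and 8, the control library of day 6 stood 1.53 higher for Ctsd, 1.44 higher for Ctsb and 1.04 higher for Ctso, and its median over the 9 cathepsins was 0.50, beside -0.018 over all genes. The knockdown library of day 6 had a median of -0.32, beside 0.011. It stood at -0.77 for Ctsh, -0.71 for Ctso and -0.0021 for Ctsb. On that day the same-day ratio was above 0 for 4 of the 9 cathepsins, with a median of -0.12, and for 50.1% of all genes. On the other days it was above 0 for 7 to 9 of the 9 cathepsins and for 48.2% to 51.1% of all genes. With day 6 kept in the test, 7 cathepsins were again called higher.

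The knockdown line had its own large steps. Ctsh rose by 1.19 from day 6 to day 8, fell by 1.31 to day 10 and rose by 2.05 to day 12. Ctsf rose by 1.10 from day 10 to day 12, and Ctsc by 1.26 from day 0 to day 1. In the control Ctsc rose by 1.25 from day 8 to day 10.

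Joined values of the 9 cathepsins were correlated over the libraries of both lines, and their same-day ratios less so. Over the joined values of 18 libraries without day 6, Pearson's r was above 0 for all 36 pairs, with a median of 0.69, a highest value of 0.89 for Ctsa with Ctso and a lowest of 0.23 for Ctsc with Ctsf. These points share their line and their day, so that the difference between lines enters each r. Over the same-day ratios of 9 days the median was 0.15, with 0.94 for Ctsa with Ctsf and -0.56 for Ctsb with Ctsh. Among 8269 other genes whose typical log2 normalized count was 8 or more, the 5 most like the mean course of the 9 cathepsins over the 18 libraries were Itfg3 (r = 0.98), Pld3 (0.97), Hexa (0.96), Slc17a5 (0.96) and Lgals8 (0.95). Hexa encodes a subunit of beta-hexosaminidase, Slc17a5 the lysosomal sialic acid exporter and Lgals8 a galectin.

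Genes that deliver, mature or accompany cathepsins were counted next. Of 19 such genes tested, 13 were higher in the knockdown, beside 26.4% of all genes, and 6 did not pass. The median mean ratio was 0.53. The highest were Gpr37, an orphan receptor that interacts with prosaposin, at 2.09 ± 0.69 (SD, n = 9 days; adjusted p = 7.82e-05), the chaperone Clu at 1.41 ± 0.68, the lysosomal peptidase Tpp1 at 0.95 ± 0.17 and Gnptg, a subunit of the enzyme that starts the mannose 6-phosphate tag, at 0.88 ± 0.24. The 2 mannose 6-phosphate receptors did not pass, with means of 0.0069 for M6pr and -0.077 for Igf2r.

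Of the 17 inhibitors listed, 10 were at 0 in all same-day tables. The 2 that passed the filter were both higher, beside 26.4% of all genes. Cst3, the secreted inhibitor cystatin C, had a mean of 0.99 ± 0.41 (SD, n = 9 days; adjusted p = 0.000274). Cstb, the intracellular inhibitor stefin B, had 0.25 ± 0.24 (adjusted p = 0.0346), and left the called genes when any of days 1, 2, 3, 4, 8, 10 or 12 was dropped, with an adjusted p of up to 0.0774. It also did not pass with day 6 kept (mean 0.18, adjusted p = 0.162), without pairing the days (0.113), on days 0 to 4 (0.309) or on days 8 to 14 (0.0641). Of 14 other cathepsins listed, 13 were found and none passed the filter. Ctsk, the osteoclast cathepsin, had 3 to 42 read equivalents in the control libraries and 5 to 30.7 in the knockdown.

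Among 12 regulators of lysosomal genes tested, 6 were higher, beside 26.4% of all genes, and 6 did not pass. Their median was 0.23. The 4 with the highest means were Mitf at 1.04 ± 0.47 (SD, n = 9 days; adjusted p = 0.000391), Tcfeb (the gene of TFEB) at 0.73 ± 0.37, the GTPase Rragd at 0.58 ± 0.23 and Flcn at 0.45 ± 0.23. The relative Tcfe3 did not pass, with a mean of -0.15. Of 18 genes of the lysosome membrane and its acidification, 15 were higher, again beside 26.4% of all genes, and 3 did not pass. Their median was 0.44. Slc17a5 stood at 1.08 ± 0.24 (adjusted p = 2.78e-05), the cholesterol transporter Npc1 at 0.88 ± 0.24, Ostm1, the partner of a lysosomal chloride transporter, at 0.76 ± 0.31 and the tetraspanin Cd63 at 0.70 ± 0.37.

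**Figure D5:**
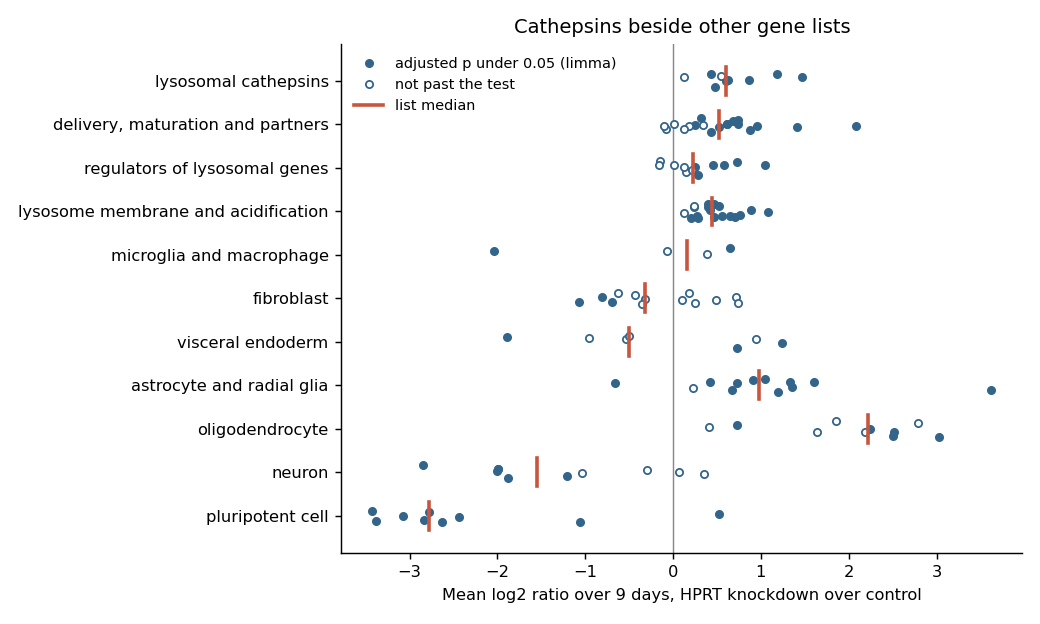
Mean log2 ratio over 9 days, HPRT knockdown over control (horizontal axis), of each gene tested in the cathepsin list, 3 lysosomal lists and 7 marker lists. Each point is a gene, filled where it passed the limma test, with red bars at list medians; vertical scatter within a row is for display. Cathepsins and lysosomal lists lie mostly above 0, as do astrocyte and oligodendrocyte markers, while neuron and pluripotency markers lie mostly below.

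Markers of cell types moved between the lines as well, and in bulk RNA a change in cell numbers and a change in transcript per cell cannot be told apart. Of 12 astrocyte and radial glia markers tested, 10 were higher and 1, Gja1, was lower, beside 26.4% and 26.5% of all genes. The median ratio was 0.98, with Aldoc at 1.60 ± 0.60 (SD, n = 9 days) and Aqp4 at 1.35 ± 0.95, which did not pass on days 0 to 4 alone (adjusted p = 0.081). On day 6, when 4 of 9 cathepsins and 50.1% of all genes were above 0, 1 of the 12 was. On the other days 8 to 11 of the 12 were above 0. Of 10 oligodendrocyte markers 5 were higher, with a median of 2.22 and Olig2 at 3.02 ± 1.44. Their median was -0.41 on day 0 and 4.42 on day 14. Of 10 neuron markers 6 were lower, with a median of -1.55 and Stmn2 at -2.01 ± 1.00. Of 9 pluripotency markers 8 were lower and Sox2 was higher, with a median of -2.78 and Nanog at -2.84 ± 1.79. On day 6 the ratio was above 0 for 10 of the 10 oligodendrocyte markers, 1 of the 10 neuron markers and 5 of the 9 pluripotency markers. The part of these cell types in the cathepsin ratios was not tested.

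Microglia and macrophages are rich in cathepsins. Of 21 of their markers found, 4 passed the filter, and C1qa, C1qb, C1qc, Cx3cr1 and Tyrobp were at 0 in all same-day tables. Of the 4, H2-Ab1 was higher, at 0.64 ± 0.72 (SD, n = 9 days; adjusted p = 0.0307), and Laptm5 was lower, at -2.04 ± 1.11. Both shares were near those of all genes, 26.4% higher and 26.5% lower. Fibroblast markers, which the feeder cells would bring, had a median of -0.32, and 3 of 13, Lum, Fbln1 and Postn, were lower, a share near the 26.5% of all genes. Their median changed sign over the days, lying between -0.53 and 0.15 on days 0 to 3. It was 0.85 on day 4 and 0.59 on day 8, with 10 of 13 above 0 on each, beside 49.2% and 50.6% of all genes. On day 6 it was -0.62, with 1 of 13 above 0, beside 50.1%. On days 10, 12 and 14 it was -0.80, -1.29 and -0.95. Without pairing the days Fbln1 (adjusted p = 0.12) and Postn (0.247) did not pass, and Lum did not pass without day 10 or without day 12 (up to 0.0578). Of 14 visceral endoderm markers found, 7 passed the filter and the others were not compared. Of the 7 tested, 2 (Foxa2 and Rbp4) were higher and 1 (Sox17) was lower, with a median of -0.51. Whether these genes mark that tissue in neural cultures was not tested. The share higher was near the 26.4% of all genes, and the share lower was below their 26.5%. The calls of H2-Ab1, Sox17 and Rbp4 were not stable. H2-Ab1 did not pass with day 6 kept (adjusted p = 0.107), without pairing the days (0.241), by the exact sign-flip test (0.0711), when any of days 2, 8, 10, 12 or 14 was left out, or on days 0 to 4, where its mean was 0.14. Sox17 had a mean of -0.20 on days 8 to 14 (adjusted p = 0.876) and did not pass with no filter (0.0751), by the exact sign-flip test (0.0769), without pairing (0.0569) or when any of days 0, 1, 2, 3, 4 or 10 was left out. Rbp4 did not pass without pairing (0.0676) or on days 8 to 14 (0.29), nor did Foxa2 on days 8 to 14 (0.09).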

How the data were processed

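RNA-seq libraries of the control and HPRT knockdown lines were taken from the deposited tables, 28 tables of 2 libraries each: 10 pair the lines within a day and 9 per line pair consecutive days. Groups came from the sample labels. Per the study's methods and the submitters' processing notes, reads were aligned by ELAND in CASAVA 1.8.2 to NCBI37/mm9, counted per gene in Avadis NGS and normalized with DESeq. The authors deposited log2 values from which the mean of the pair had been subtracted, so each pair gives a log2 ratio. Each table was normalized separately, and values of 1 normalized count or less were set to 0 on the log2 scale, which shrinks the ratios of low genes. Which lane held which library is not given in the sources used here, and lanes could not be compared.

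The 10 cathepsins and all gene lists were chosen with earlier results of these data known. Hprt was named as the check. At most 4 called genes were picked per list by the size of their mean ratio. Of those picked for the astrocyte, oligodendrocyte, neuron and pluripotency lists, only some were printed, and these were not always the largest. M6pr, Igf2r, Tcfe3, Gja1, Sox2, Ctsk and the microglial genes at 0 were named after their values were seen. A typical level was read from the rounding step of the single-precision values, and 13450 genes whose typical log2 normalized count reached 4 were tested. The same-day ratios of 9 days were tested against 0 with limma 3.58.1 (lmFit, eBayes, R 4.3.3), Benjamini-Hochberg adjusted over those genes at 0.05, which pairs the libraries of a day. The design had allowed for counts, and the log2 unit set this test. Slopes on day were fitted with limma to joined values and to the ratios. P-values measure the spread over days of lines made once. Deviations of same-day libraries from their line means correlated across genes with r from 0.133 to 0.429 on 8 of the 9 days and -0.0175 on day 0.

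Read equivalents were recovered for 9364 genes as the counts, in units of 1 aligned base of a 49-base read, that gave the ratios of all tables but the control table of days 3 and 4, within 2.5e-06 on the log2 scale, with up to 2 libraries off and at most 3061 reads. Of the recovered base counts 25.6% were multiples of 49, against 2.20% or fewer for 47, 48, 50 and 51. The filter, recovery and fits were tested on simulated data. For the fits the simulated days were independent of each other, so dependence between the days of a course was not checked. Exons came from the GENCODE annotation of NCBIM37. Alternatives were other filters, day 6 kept, each day left out, re-centring, an exact sign-flip test, unpaired lines, recovered reads, early or late days, another time scale and joining through the other line.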

Additional observations from a re-analysis of the deposited data

Results flagged for a closer look

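Among 27 sets of 10 values, the same-day ratios and the joined values of each line for 9 cathepsins, 3 held a value whose gap to its neighbour exceeded 0.466 of the whole range, Dixon's limit for 10 values, which chance exceeds in about 1 of 20 sets. All 3 were of day 6. The same-day ratio of Ctsb was -0.47 on that day, with the other 9 days between 0.48 and 1.13, and that of Ctsd was -0.89, with the others between 0.28 and 0.94. The joined value of Ctso in the knockdown line was 0.12 on day 6 and up to 1.60 on the other days. Without day 6, which the tests left out, Ctsb and Ctsd were higher on 9 of 9 days.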

How the results depend on the processing

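The count of cathepsins higher in the knockdown, 7 of 9 as reported, was 7 with no filter, with day 6 kept, re-centred on the median and by the exact sign-flip test. On days 0 to 4 it was also 7, but Ctsl (adjusted p = 0.117) had left and Ctsh (0.00399) had entered. It was 5 of 9 on days 8 to 14, where Ctsa (adjusted p = 0.0678) and Ctsf (0.0714) did not pass. It was 5 of 6 at a log2 count of at least 8. From recovered reads it was 3 of 4, fewer because 4 cathepsins had recovered reads. These reads were derived from the same ratios, so that count is no independent check. With no replicate block, the lines compared without pairing the days, it was 5 of 9, and Ctsf (adjusted p = 0.106) and Ctsl (0.0624) did not pass. Leaving out each day in turn gave 7 to 8. The mean ratio of Ctsh was -0.018 on days 8 to 14 (limma adjusted p = 0.98) and positive under the other alternatives. In those late days it was -1.73 on day 10, and 0.38, 0.40 and 0.88 on days 8, 12 and 14. For the trends, leave-one-out counts were 1 to 2 in the control, against 1 as reported, and 0 to 3 in the knockdown, against 2; without day 0 Ctsz also rose in the control (adjusted p = 0.0464), and without day 1 Ctsb also rose in the knockdown (adjusted p = 0.0308). On log2(day + 1) both counts were 0 and the cause was not tested. The count of differing trends was 0 under each alternative run. There were 14 large steps both directly and through the other line. As the loops close for most genes outside days 3 and 4, these 2 counts are no independent check of each other. With 1 library per line and day, what varies between cultures of a line was not measured. Ctss and the 13 other cathepsins found were under the filter and were not compared. Low depth and absent expression cannot be told apart for those with few or no reads, while Ctsk had reads in both lines.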
